A study of Schizosaccharomyces pombe with 25 samples.

Results

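The fission yeast Schizosaccharomyces pombe carried 116 tRNA genes away from its centromeres and 55 at them on the nuclear chromosomes I, IIc and III, in the annotation that the authors deposited. Together they made 2.44% of 7015 annotated genes of every kind. They were chosen as every gene whose annotation source column reads tRNA on those chromosomes, and the 25 mitochondrial tRNA genes were left out. The amino acid that each gene serves was taken from the letters in its identifier, so that SPATRNASER.01 is a serine gene on chromosome I, while SPB stands for chromosome II and SPC for chromosome III. The annotation accompanies 25 chromatin immunoprecipitation sequencing samples in 13 groups, with CENP-A precipitated from wt, pht1∆, swr1∆ and msc1∆ strains, H2A.Z from wt, swr1∆ and msc1∆ strains, and Swr1 and Msc1 from wt. IIc is chromosome II as the authors modified it, with the centromere core exchange labelled cc2∆:cc1, which a wt, a pht1∆, a swr1∆ and a msc1∆ strain carried in 4 of the 9 CENP-A samples. Values of individual samples were not analysed here, so what follows describes genes and not binding, and no depth or replicate error applies to it. The longest stretch without a protein-coding gene on each chromosome, which spans the centromere, served to divide the genes. It ran from position 3751730 to 3790911 on I, from 1596745 to 1647302 on IIc and from 1064444 to 1142615 on III, and these 3 stretches are called the centromeric intervals. Away from them lay 67.8% of the tRNA genes and within them 32.2%.

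Transfer RNAs carry amino acids to the ribosome and read codons through a triplet called the anticodon. Their genes are transcribed by RNA polymerase III, which is directed by promoter elements inside the gene, the A box and the B box, and which stops at a run of T on the coding strand. In this yeast an upstream TATA element is also known to take part, and some tRNA genes hold a short intron next to the anticodon that a dedicated endonuclease and ligase remove. Groups of tRNA genes are known to flank the cores of its centromeres and to bound domains of chromatin there.

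All 20 amino acids had a gene away from the intervals. Arginine, leucine and serine each had 13 genes in all, the most of any kind, and cysteine and tryptophan had 3 each, the fewest. Serine genes were almost wholly outside the intervals, with 12 of 13 away. Over all kinds 67.8% of genes were away. Glycine had 10 of 12 genes away and threonine 8 of 10, while lysine with 8 of 12 and leucine with 8 of 13 were near the share over all kinds. Alanine and valine had fewer genes away than inside, with 5 of 12 genes away and 7 in the intervals for each. Isoleucine had 3 of 9 genes away and 6 in the intervals. Cysteine with 3 genes, glutamine with 6, histidine with 4, proline with 9 and tryptophan with 3 had no gene in an interval, and no kind was found in the intervals alone. The 3 cysteine genes all lay on chromosome I. By chromosome, 49 of the 56 genes on I were away from the interval, against 41 of 68 on IIc and 26 of 47 on III.

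**Figure D1:**
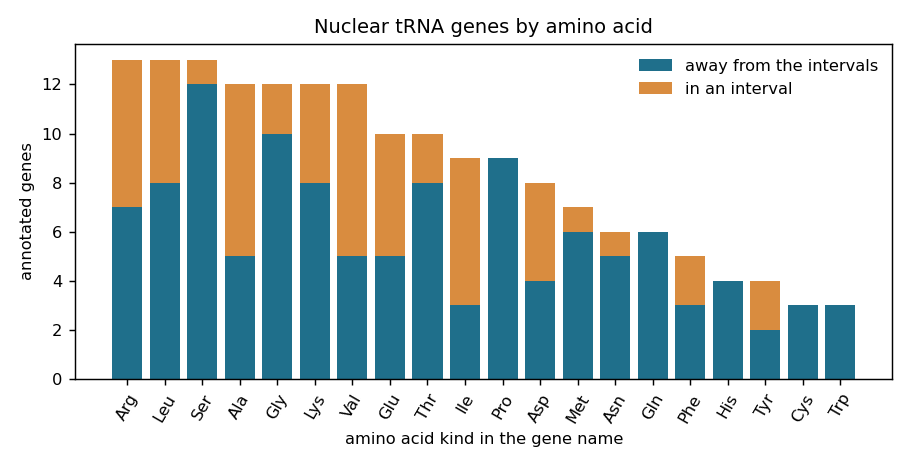
Number of nuclear tRNA genes for each amino acid, with the genes away from the centromeric intervals and those inside them stacked in separate colours. Serine has 12 genes away and 1 inside, while alanine and valine have 5 away and 7 inside.

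Kinds with more genes tended to be those whose amino acid is encoded more often. Over 5114 coding sequences of the RefSeq annotation, which hold 2376756 codons, leucine took 9.86% of codons, serine 9.43%, cysteine 1.46% and tryptophan 1.12%. Across the 20 kinds, gene number and codon share had a Pearson correlation of 0.81 and a Spearman correlation of 0.81. Counting the genes away from the intervals alone, the correlations were 0.56 and 0.46. These describe 20 kinds of one genome, and no test was made. Codons were pooled and counted equally whatever the expression of the gene, so longer coding sequences weigh more.

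The anticodon was read from each gene's own sequence, as the middle of a loop of 7 bases between the best-paired arms of 5 bases, with T before the anticodon and a purine after it. The sequences were those of RefSeq assembly ASM294v3, where every gene was found by identifier with the same strand and length. Fewer than 5 pairs were accepted. Spliced as annotated, 137 genes had 5 Watson-Crick pairs, 22 had 5 pairs with G-T pairs among them, 11 had 4 pairs, and SPBTRNALYS.07 had 2. It coded for the amino acid of the gene's name in 169 genes (98.8%), and the 2 exceptions, SPBTRNAASP.05 and SPBTRNASER.06, are described below with their sequences. With those 2 genes read as their identical copies are, the genes made 45 combinations of amino acid and anticodon. Anticodons began with C in 15 combinations, with T in 14, with A in 8 and with G in 8. Of the 45, 12 were served by a single gene in the whole nuclear genome. These were Ala CGC, Arg CCG, Arg CCT, Arg TCG, Gly CCC, Ile TAT, Leu CAG, Leu TAG, Pro CGG, Ser CGA, Thr CGT and Val CAC. Away from the intervals 43 of the 45 anticodons were present, and 18 in the intervals. The 2 found in the intervals alone were Leu CAA, with 4 genes, and Arg TCG, whose sole gene is SPCTRNAARG.10.

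A pair of neighbouring glutamine genes with different anticodons differed in 1 base. SPBTRNAGLN.01, at chrIIc:257454-257525 on the forward strand, and SPBTRNAGLN.02, at chrIIc:257908-257979 on the reverse strand, are shown with the anticodon in capitals. These and all further sequences are those of RefSeq assembly ASM294v3.
SPBTRNAGLN.01: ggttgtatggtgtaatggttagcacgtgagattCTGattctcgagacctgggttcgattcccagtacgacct
SPBTRNAGLN.02: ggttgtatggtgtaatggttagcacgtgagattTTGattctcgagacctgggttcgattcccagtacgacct
The genes differed by the substitution C34T, counted from the first base of the gene and written from SPBTRNAGLN.01 to SPBTRNAGLN.02, which lies in the anticodon. A change of 1 base outside the anticodon separated the asparagine genes SPCTRNAASN.05 (chrIII:947262-947335, forward) and SPBTRNAASN.04 (chrIIc:4209203-4209276, reverse), where it was A12G, and their anticodon is likewise in capitals.
SPCTRNAASN.05: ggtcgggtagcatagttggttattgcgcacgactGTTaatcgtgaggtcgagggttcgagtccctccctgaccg
SPBTRNAASN.04: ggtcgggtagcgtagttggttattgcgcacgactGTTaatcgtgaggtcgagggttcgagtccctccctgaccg
Both asparagine genes lay away from the intervals and read GTT.

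Most tRNA genes had an exact copy. After the introns annotated by RefSeq were taken out, the genes made 64 distinct sequences, and 139 genes (81.3%) were identical to at least 1 other. Away from the intervals 87 of 116 genes (75%) had a copy, and inside them 52 of 55 (94.5%). The largest families had 9 genes each. They were Ala AGC and Val AAC, and in each of them 2 genes were away and 7 in the intervals. There were 32 families of at least 2 genes, and 11 families had a member on each of the 3 chromosomes. The intervals held 20 distinct sequences and the remainder of the genome 59, of which 15 were in both. Of the interval genes, 42 of 55 (76.4%) had their sequence also in a gene away, and of the genes away, 48 of 116 (41.4%) had theirs in an interval. The isoleucine genes of the intervals, a family of 6, and the 4 Leu CAA genes had no copy away. These counts are as annotated. SPBTRNALYS.07 and SPBTRNAASP.05 are counted here as interval genes without a copy. With the annotation conflicts described below set right, both have copies in the intervals and away.

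Identity ended close to the gene outside the intervals. For each gene with an identical whole copy, the identical bases continuing on both sides were added up. The median over 81 genes away was 5 bases, with a range from 0 to 63. The median over 52 genes in the intervals was 1557.5 bases, with a range from 2 to 6372. At least 50 bases of shared flank were found for 2 of 81 genes away (2.47%) and for 40 of 52 in the intervals (76.9%). The 2 away were SPATRNAMET.01 and SPCTRNAMET.07, each of which follows a serine gene that is described below. Thus copies away from the intervals shared the gene itself and little else, while copies in the intervals lay within longer repeated stretches.

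An aspartate gene was annotated on the strand opposite to its copies. SPATRNAASP.01 (chrI:4532857-4532927, forward) has the sequence of 7 of the 8 aspartate genes. SPBTRNAASP.05 (chrIIc:1602347-1602417) is annotated on the forward strand, and its letters on that strand are given first as they stand and then as the reverse complement.
SPATRNAASP.01: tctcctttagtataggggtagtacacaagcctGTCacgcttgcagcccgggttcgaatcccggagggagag
SPBTRNAASP.05: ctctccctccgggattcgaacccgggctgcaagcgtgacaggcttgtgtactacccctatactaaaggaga
SPBTRNAASP.05 reverse complement: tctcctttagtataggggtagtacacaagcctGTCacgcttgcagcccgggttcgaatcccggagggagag
The reverse complement was identical to SPATRNAASP.01 over all 71 bases and holds the aspartate anticodon GTC, so the annotated strand is opposite to that of the copies. The strand is forward in the deposited annotation and in RefSeq alike. RefSeq's product field names asparagine for 5 genes whose identifiers say aspartate, namely SPBTRNAASP.05 and SPCTRNAASP.05 to SPCTRNAASP.08. By sequence all 5 equal the other aspartate genes, SPBTRNAASP.05 on its opposite strand. With the strand of SPBTRNAASP.05 turned and the intron of SPBTRNASER.06 and SPBTRNALYS.07 set as in their copies, every anticodon matched the gene's name, the distinct sequences fell to 61 and the genes with a copy came to 142 (83%).

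Introns were annotated unevenly. The deposited exons left a gap in 25 genes (14.6%), and these were 1 of 56 on chromosome I, 15 of 68 on IIc and 9 of 47 on III. In RefSeq 44 genes (25.7%) had an intron, with 16 on I, 17 on IIc and 11 on III. All 25 deposited introns were in RefSeq at the same place and with the same length, and 19 genes had one in RefSeq alone, of which 15 were on chromosome I. None had an intron in the deposited annotation alone. Away from the intervals the deposited annotation gave an intron to 9 of 116 genes (7.76%) and RefSeq to 26 (22.4%). Inside the intervals the shares were 29.1% and 32.7%, that is 16 and 18 of 55. The difference between the genes away and those in the intervals thus depended on the annotation. The single deposited intron on chromosome I belonged to SPATRNALYS.04.

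**Figure D2:**
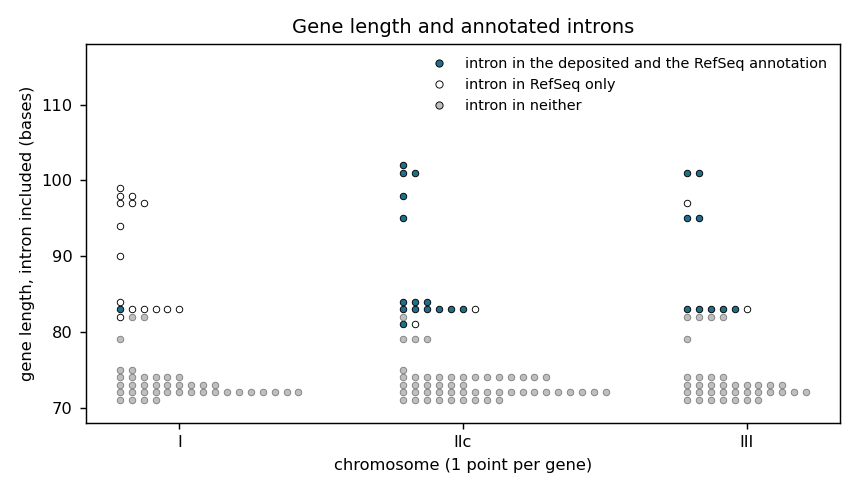
Length in bases of each nuclear tRNA gene by chromosome, with points coloured by whether an intron is annotated in both annotations, in RefSeq alone or in neither. On chromosome I nearly all introns appear in RefSeq alone, while on IIc and III most appear in both.

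Identical sequences with different annotation show the same unevenness gene by gene. A lysine sequence with anticodon CTT is shared by 6 genes. An intron of 8 bases was deposited for SPATRNALYS.04, SPBTRNALYS.09, SPCTRNALYS.11 and SPCTRNALYS.12, and none for SPATRNALYS.05 and SPCTRNALYS.10. A valine sequence with anticodon AAC is shared by 8 genes, of which 6 had a deposited intron of 9 bases and SPATRNAVAL.04 and SPBTRNAVAL.06 had none. RefSeq gave the intron to all members of both families. For SPBTRNALYS.07 and SPBTRNALYS.08, which are identical as whole genes, both annotations gave introns of 7 and 8 bases. SPBTRNASER.06 was annotated with an intron of 9 bases from base 42, and its identical copies SPCTRNASER.10 and SPCTRNASER.13 with 11 bases from base 40. Spliced as annotated, SPBTRNASER.06 read ATT, and spliced as its copies are it read GCT, a serine anticodon.

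In RefSeq, nearly every anticodon had an intron in all of its genes or in none. With identical genes given the same intron, 15 of the 45 anticodons had an intron in every gene, 29 in no gene, and Met CAT in some. Methionine genes with CAT serve separate roles, since the initiator starts translation and the elongator inserts methionine within proteins. The 4 genes with the initiator sequence had no intron and the 3 others each had one. Tyrosine was the sole amino acid whose genes all had an intron, and 10 of the 20 kinds had at least 1 gene with one. The 12 anticodons with a single gene can only be all or none, and 8 of them carried an intron. Many of the other anticodons have genes of a single spliced sequence. Agreement within those is little more than agreement between copies. Introns began 1 base after the anticodon in 43 of 44 genes of RefSeq. The exception, SPBTRNASER.06, rests on its conflicting intron bounds and on the triplet ATT read from them. In its identical copies the intron began 1 base after GCT. They were 7 to 30 bases long with a median of 9.5 bases. Genes without an intron were 71 to 82 bases long. Those with an intron were 81 to 102 bases long, and after splicing, with identical genes given the same intron, the leucine and serine genes were 79 to 84 bases long and all others 71 to 75. As annotated, the upper limits were 86 and 76, which SPBTRNASER.06 and SPBTRNALYS.07 set.

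The longest and the shortest introns are shown with the intron in capitals. SPBTRNAARG.05, the sole Arg CCT gene (chrIIc:1160893-1160994, reverse), had 30 bases. The elongator methionine genes had exons in common and introns of 7 or 9 bases. They are SPATRNAMET.02 (chrI:1484979-1485061, reverse), SPBTRNAMET.04 (chrIIc:658451-658531, forward) and SPBTRNAMET.05 (chrIIc:1598075-1598155, reverse).
SPBTRNAARG.05: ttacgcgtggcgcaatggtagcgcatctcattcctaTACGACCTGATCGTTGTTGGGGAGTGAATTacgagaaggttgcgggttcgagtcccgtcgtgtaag
SPATRNAMET.02: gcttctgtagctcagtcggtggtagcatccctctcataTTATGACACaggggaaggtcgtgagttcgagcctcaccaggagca
SPBTRNAMET.04: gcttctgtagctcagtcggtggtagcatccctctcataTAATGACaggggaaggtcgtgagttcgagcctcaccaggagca
SPBTRNAMET.05: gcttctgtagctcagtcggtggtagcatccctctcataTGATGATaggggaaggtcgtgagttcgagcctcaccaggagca
The lower-case bases of the 3 methionine genes were identical, and their 3 introns all differed. The intron was also the variable stretch in Val AAC, Lys CTT and Leu TAA genes. Within each of these the exons were identical, with SPBTRNALYS.07 spliced as its copy is, while the introns were not. For valine the intron was 9 bases in SPBTRNAVAL.07 (chrIIc:1628309-1628391, forward, in the interval) and 8 in SPATRNAVAL.03 (chrI:2214733-2214814, reverse, away).
SPBTRNAVAL.07: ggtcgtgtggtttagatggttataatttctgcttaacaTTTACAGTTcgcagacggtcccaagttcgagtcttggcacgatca
SPATRNAVAL.03: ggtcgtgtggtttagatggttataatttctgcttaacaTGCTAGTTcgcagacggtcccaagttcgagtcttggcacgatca
Lysine genes SPATRNALYS.04 (chrI:2684683-2684765, reverse) and SPATRNALYS.01 (chrI:1704582-1704664, forward) had 0 differences in their exons and introns that differed in the last base.
SPATRNALYS.04: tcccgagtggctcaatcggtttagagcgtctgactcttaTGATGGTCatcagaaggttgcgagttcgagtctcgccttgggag
SPATRNALYS.01: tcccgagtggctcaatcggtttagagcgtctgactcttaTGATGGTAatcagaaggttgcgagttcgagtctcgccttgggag
In tyrosine both parts varied among the genes, though SPATRNATYR.01 and SPBTRNATYR.02 had identical exons and different introns. SPBTRNATYR.02 (chrIIc:1598511-1598594, forward, in the interval) and SPBTRNATYR.04 (chrIIc:3813708-3813791, forward, away) differed in the intron and in the exons by C28T, counted in the spliced gene.
SPBTRNATYR.02: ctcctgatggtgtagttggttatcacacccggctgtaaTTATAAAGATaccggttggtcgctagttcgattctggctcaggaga
SPBTRNATYR.04: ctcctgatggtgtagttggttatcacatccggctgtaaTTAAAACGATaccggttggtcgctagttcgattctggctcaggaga
Over all genes, the spliced sequences that occur with different introns made 5 families, and there were 26 distinct introns, as annotated, among the 44. No spliced sequence was found also as an unsplit gene. The 4 Leu CAA genes, which are the sole genes with that anticodon and all lie in intervals, shared an intron of 19 bases, as in SPCTRNALEU.12 (chrIII:1096085-1096185, reverse).
SPCTRNALEU.12: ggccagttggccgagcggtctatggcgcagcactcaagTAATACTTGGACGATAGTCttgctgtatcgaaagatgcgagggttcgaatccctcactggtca

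Genes away from the intervals mostly stood alone. The median distance to the nearest other tRNA gene was 32.3 kb with a maximum of 206 kb, and it was over 10 kb for 88 of 116 genes (75.9%). Groups, formed by neighbours at most 1000 bases apart on either strand, took in 17 of the 116 genes (14.7%). They made 8 groups, of which 7 were pairs and 1 held 3 genes. In the intervals 46 of 55 genes (83.6%) were in 9 groups, the largest with 12 genes. The 3 glutamine genes SPBTRNAGLN.01, SPBTRNAGLN.02 and SPBTRNAGLN.03, with gaps of 382 and 868 bases, were the sole group of 3 away and the sole group of a single kind there. The first of them was on the forward strand and the others on the reverse. SPBTRNAGLY.04 and SPBTRNAALA.07 lay 216 bases apart and pointed away from each other, and SPBTRNAGLY.05 and SPBTRNAARG.04 lay 346 bases apart and pointed toward each other. SPBTRNALYS.09 and SPBTRNATYR.04, 341 bases apart, and SPATRNACYS.03 and SPATRNAPHE.01, 818 bases apart, were each on the forward strand.

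**Figure D3:**
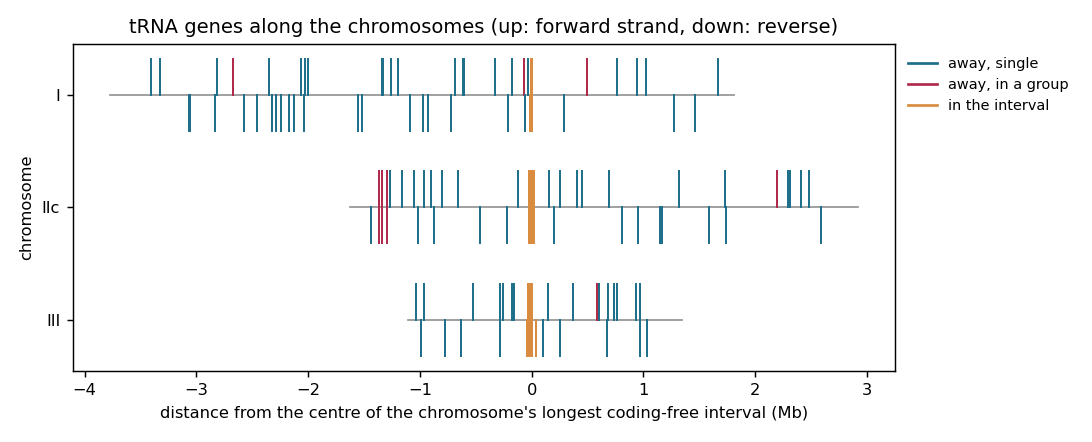
Position of each nuclear tRNA gene in megabases from the centre of the centromeric interval of its chromosome, with forward-strand genes drawn up and reverse-strand genes down. Genes in the intervals form dense blocks at 0, and the 17 genes in groups away from them are few and scattered.

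The 3 remaining groups were of the same kind, a serine gene followed after 7 bases by an initiator methionine gene on the same strand. Such pairs are known in this yeast to be transcribed as a joint precursor that is then cut into the tRNAs. They lay at chrI:1096369-1096545, chrI:4265149-4265324 and chrIII:1689713-1689888, all on the forward strand, and are shown from the first base of the serine gene to the last of the methionine gene, introns included, with the bases between the genes in capitals.
SPATRNASER.01 to SPATRNAMET.01: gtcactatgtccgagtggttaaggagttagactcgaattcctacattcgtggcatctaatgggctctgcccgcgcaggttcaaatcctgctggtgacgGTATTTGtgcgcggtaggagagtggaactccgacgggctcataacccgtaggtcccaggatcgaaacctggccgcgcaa
SPATRNASER.03 to SPATRNAMET.03: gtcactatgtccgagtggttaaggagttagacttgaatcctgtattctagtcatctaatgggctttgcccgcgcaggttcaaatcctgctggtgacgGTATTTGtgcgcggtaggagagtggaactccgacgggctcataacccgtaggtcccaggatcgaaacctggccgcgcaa
SPCTRNASER.11 to SPCTRNAMET.07: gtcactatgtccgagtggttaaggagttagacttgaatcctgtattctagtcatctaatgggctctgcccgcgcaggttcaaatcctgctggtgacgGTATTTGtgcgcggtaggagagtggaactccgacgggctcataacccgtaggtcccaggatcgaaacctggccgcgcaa
The spacer was GTATTTG in all 3, and the methionine genes were identical. The serine genes differed. From SPATRNASER.01 to SPATRNASER.03 the spliced genes had the substitutions C34T and C50T, the first of which changes the anticodon from CGA to TGA. From SPCTRNASER.11 to SPATRNASER.03 the substitution was C50T alone. SPATRNASER.01 was the sole Ser CGA gene of the genome. The fourth initiator gene, SPBTRNAMET.06 on IIc, had no such partner, and its nearest tRNA gene was 115 kb away. Pairs closer than 50 bases numbered 4 in the genome. The remaining pair, SPBTRNAASN.01 and SPBTRNAMET.05, was 5 bases apart on the reverse strand in the interval of IIc and held an elongator methionine gene.

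The run of T where transcription ends was near the end of most genes. TTTT occurred within 20 bases after the gene in 160 genes (93.6%), in 108 of 116 away (93.1%) and in 52 of 55 in the intervals (94.5%). All windows of 20 bases, taken on both strands, held it in 17.3% of cases, and those between coding genes in 19.9%. Its median first position was base 4 after the gene, and the median run was 5.5 T long, with 11 as the longest. The 3 serine genes of the pairs had their first TTTT at base 83 after the gene, and SPBTRNAMET.05 at base 80. For all 4 that is beyond the end of the partner gene. The other 7 genes without it had it further on or cut by the window, at base 34 for SPBTRNAGLN.01, base 32 for SPCTRNALYS.10 and SPCTRNALYS.11, base 25 for SPCTRNATHR.10, and base 18 to 20 for SPBTRNATHR.06, SPCTRNASER.13 and SPCTRNAGLN.06.

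Both strands carried tRNA genes. Away from the intervals 68 of 116 genes (58.6%) were on the forward strand, with 27 of 49 on I, 24 of 41 on IIc and 17 of 26 on III. Inside them 23 of 55 (41.8%) were. These are counts in single chromosomes without replicates, and no test was made.

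Outside the intervals most tRNA genes had a protein-coding gene within 500 bases. Between the ends of the annotated genes, untranslated regions included, the median distance was 299.5 bases and the range was 0 to 1625. Of the 116 genes, 88 (75.9%) had a coding gene within 500 bases and 114 (98.3%) within 1 kb. Gaps between neighbouring coding genes had a median length of 349 bases over all gaps. The same shares were not computed for other genes or positions, so no closeness particular to tRNA genes is claimed. The 2 beyond 1 kb were SPATRNALYS.04, 1305 bases from SPAC644.07, and SPBTRNAGLU.08, 1625 bases from mug147. In the intervals, which hold no coding gene by construction, the distance to the nearest was 351 to 38365 bases with a median of 4722. Without overlap the closest pair was SPCTRNAGLU.09, 29 bases from SPCC320.14. The next nearest were SPATRNAVAL.02, 34 bases from alp41, SPBTRNAASP.04, 44 bases from thi2, and SPBTRNAMET.06, 47 bases from map4. In all, 11 genes lay under 100 bases from a coding gene without overlap.

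**Figure D4:**
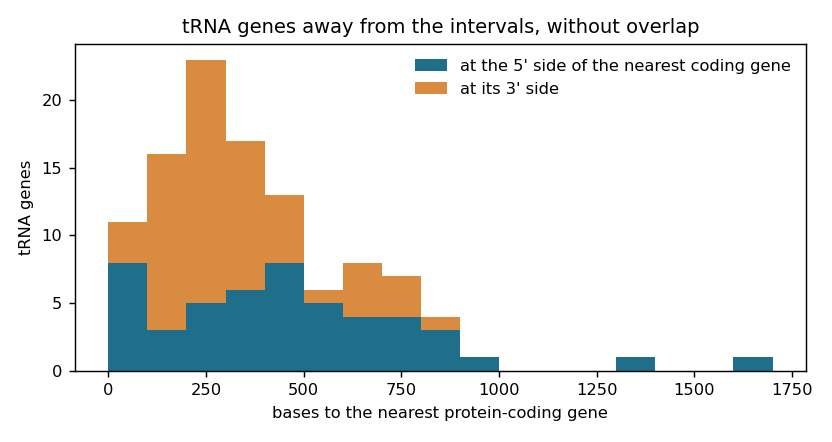
Number of tRNA genes away from the centromeric intervals by distance in bases to the nearest annotated protein-coding gene, in steps of 100 bases, for the 108 genes without overlap, with those at its 5' side and at its 3' side stacked. The median is 259 bases at the 3' side and 424 at the 5' side, while under 100 bases there are 8 genes at the 5' side and 3 at the 3' side. Distances are not adjusted for the length of the gap.

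An overlap with a coding gene was annotated for 8 of the 116 genes (6.9%), 7 on chromosome I and 1 on IIc. The share of other genes that overlap a coding gene was not computed, so these counts cannot be called high or low. None touched a coding span. The 5' UTR was concerned in 7 and the 3' UTR in 1, and the coding gene was on the same strand in 5 and on the opposite strand in 3. SPATRNALEU.03 lay wholly in the 5' UTR of SPAC17G6.03, 1010 bases from its coding span, and SPATRNAVAL.04 wholly in that of ppk3, on the opposite strand and 724 bases from the coding span. SPATRNAARG.02 shared 68 bases with the 5' UTR of prm1, a gene for a membrane protein of cell fusion in mating. SPATRNAALA.03 shared 63 bases with that of peg1, which encodes a microtubule-associated protein, on the opposite strand and 141 bases from the coding span, the nearest of the 8. SPATRNATYR.01 shared 80 bases with the 3' UTR of SPAC105.03c on the opposite strand. SPATRNAGLU.01 shared 50 bases with lcp1, SPATRNAPRO.01 23 bases with SPAC630.10 and SPBTRNAGLN.04 12 bases with SPBC1271.08c, all at the 5' UTR and on the same strand.

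The 108 genes without overlap were divided over both sides of their nearest coding gene. The 5' side of the coding gene had 49 (45.4%), at a median of 424 bases, and the 3' side 59 (54.6%), at a median of 259 bases. Under 100 bases the order was the other way, with 8 genes at the 5' side and 3 at the 3' side, and the 8 overlapping genes, 7 of them at a 5' UTR, are not in these medians. Nearest coding gene and tRNA gene were on the same strand in 57 of 108 (52.8%). By the coding genes bounding it, the gap around the tRNA gene was between genes running in the same direction for 53 genes (49.1%), between genes running apart for 39 (36.1%) and between genes running toward each other for 16 (14.8%). Of all 3575 gaps between neighbouring coding genes these classes made 55%, 30.5% and 14.5%, and of the bases in gaps 47.6%, 44.4% and 7.98%. Over all gaps their median lengths were 304, 680 and 160 bases. Gaps between genes running apart are bounded by 5' sides alone, and the medians by side were not adjusted for gap length. All gaps here take in the centromeric intervals, where none of these 108 genes lie. That of III alone has 78172 bases, between genes running toward each other. Gaps that held a tRNA gene numbered 99 and had a median length of 1235 bases, against 349 bases over all gaps. A longer gap has more room for a gene, and lengths were not weighted for that. These medians therefore do not show a preference for long gaps.

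Upstream, TATA stood at a preferred distance. It occurred within 60 bases before the gene in 100 of 116 genes away (86.2%) and in 36 of 55 in the intervals (65.5%). In all windows of 60 bases, on both strands, it occurred in 28%, and in windows between coding genes in 39.4%. It started 31 to 40 bases before the gene in 79 of 116 genes away (68.1%) and 30 of 55 in the intervals (54.5%). For 21 to 30 bases before, the shares were 28.4% and 30.9%, and for 41 to 50 bases 7.76% and 10.9%. A stretch of 10 positions between coding genes held such a start in 8.98% of cases. In the intervals there was also a share of 25.5% for 111 to 120 bases before the gene, where genes away had 12.9%. The interval genes share flanking sequence, so they are not separate observations in any of the upstream shares given here. The longer match TATAA, within 60 bases, was found in 45 of 116 genes away (38.8%) and 27 of 55 in the intervals (49.1%), against 17.1% of windows between coding genes. TATA and TATAA overlap, since each TATAA holds a TATA.

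**Figure D5:**
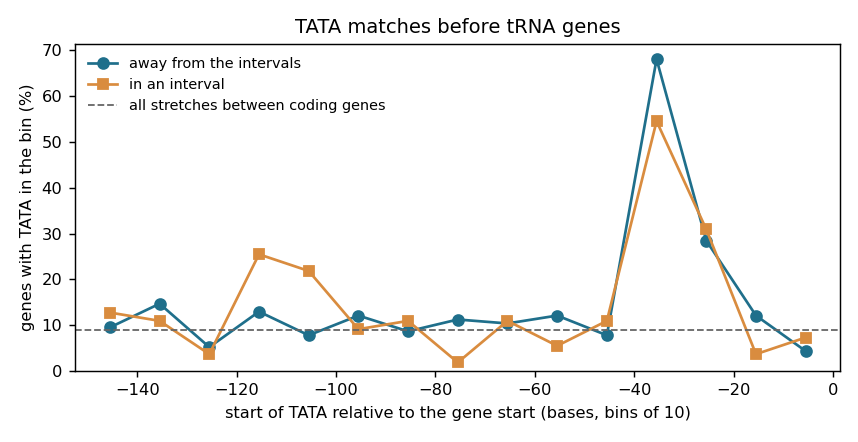
Percent of tRNA genes in which TATA starts at a given distance in bases before the gene, in stretches of 10 positions, for genes away from the centromeric intervals and genes inside them, with the share of all stretches between coding genes as a dashed line. Both groups have their highest share at 31 to 40 bases before the gene, 68.1% away and 54.5% inside. Genes inside share flanking sequence and are not separate observations.

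The 60 bases before the serine genes of the 3 pairs and before the 4 histidine genes, which all lie away from the intervals, show the spread of these positions, with TATA in capitals. They end with the base next to the gene and are given on the strand of the gene.
SPATRNASER.01 60 bases before: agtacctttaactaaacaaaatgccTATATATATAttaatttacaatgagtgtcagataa
SPATRNASER.03 60 bases before: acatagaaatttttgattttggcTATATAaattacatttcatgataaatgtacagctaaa
SPCTRNASER.11 60 bases before: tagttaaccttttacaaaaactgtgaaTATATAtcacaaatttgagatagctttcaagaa
The 3 serine windows had TATA start at 35, 37 and 33 bases before the gene, and apart from it had different sequences although the genes behind them are close copies.
SPBTRNAHIS.01 60 bases before: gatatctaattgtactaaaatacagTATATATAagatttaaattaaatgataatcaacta
SPBTRNAHIS.02 60 bases before: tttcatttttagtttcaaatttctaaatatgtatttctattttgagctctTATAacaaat
SPCTRNAHIS.03 60 bases before: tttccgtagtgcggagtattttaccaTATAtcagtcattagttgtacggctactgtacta
SPCTRNAHIS.04 60 bases before: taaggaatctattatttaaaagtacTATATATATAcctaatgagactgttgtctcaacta
The first TATA was 35, 34 and 35 bases before SPBTRNAHIS.01, SPCTRNAHIS.03 and SPCTRNAHIS.04, and 10 bases before SPBTRNAHIS.02. A match describes letters and is not evidence of a factor's binding. CAA, searched in the 20 bases before the gene, was in 103 genes (60.2%), against 34.4% of windows between coding genes.

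Inside the gene, the B box motif GTTCGANNC, searched on the strand of the gene, was present in 131 genes (76.6%), with 87 of 116 away (75%) and 44 of 55 in the intervals (80%). Windows of 73 bases held it in 0.18% of cases over the genome, both strands counted, and in 0.281% between coding genes. With any base allowed after GTTC, as GTTCNANNC, it was in 156 genes (91.2%), of which 109 were away (94%) and 47 in the intervals (85.5%). The 15 genes without the wider motif were the 9 Ala AGC genes, the 4 initiator methionine genes, SPATRNAARG.01 and SPBTRNAASP.05, the last of which has it on the opposite strand. Representatives of the alanine and initiator genes are SPATRNAALA.01 (chrI:934665-934738, reverse) and SPATRNAMET.01 (chrI:1096474-1096545, forward), shown with the anticodon in capitals.
SPATRNAALA.01: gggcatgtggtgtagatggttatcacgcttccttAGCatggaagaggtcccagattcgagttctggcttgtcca
SPATRNAMET.01: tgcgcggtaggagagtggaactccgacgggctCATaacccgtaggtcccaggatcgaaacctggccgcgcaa

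Identical copies limit which sequenced fragments can be placed. A window of 50 bases starting at a base of a tRNA gene was unique in the reference genome, both strands counted, for 52.7% of positions (95% Wilson interval 51.9 to 53.6). It was unique for 70.6% of positions in genes away from the intervals (69.7 to 71.6) and for 15.3% in those inside (14.3 to 16.4), against 95.9% over the genome. The Wilson intervals treat positions as a sample of separate ones, although every position was counted, neighbouring windows overlap and copies repeat each other. They therefore do not measure an error of these shares. For windows lying wholly within a gene the share was 31.3% away (1019 of 3260) and 3.54% inside (56 of 1582). No unique position was found in 41 of 55 interval genes (74.5%), while each of the 116 genes away had at least 1. This holds for the reference assembly, where the exchanged core of IIc is not represented.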

How the data were processed

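Per the labels, 25 fission yeast samples were made by chromatin immunoprecipitation sequencing. Build ASM294v2 and the tools deepTools 2.5.3, bedtools, SAMtools, Bowtie2 and BWA are named in the submitters' processing notes, and their settings were not given in the sources used. No value of a sample was analysed, so depth is unknown. The annotation deposited by the authors gives positions in bases, without scores or normalisation.

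Genes were matched by identifier to RefSeq ASM294v3, which is not the authors' build: 138 of 171 tRNA genes had the same position, and 33 on IIc lay 850 bases higher in RefSeq. Sequences were read at RefSeq's positions, and printed coordinates are the deposited ones. The genome sequence with the exchanged core was not used here.

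Introns are gaps between exons. Copies were compared after splicing by RefSeq exons. Windows for motif backgrounds and uniqueness count both strands. Members, lists and measures were chosen with earlier results of these data known, and no test was made. Genes named are those at the extremes of a measure, in groups, overlaps or annotation conflicts, with examples chosen after their values were seen. The scripts were tested on simulated data. Alternatives changed interval width, chromosome, group distance, intron source, motif, window and coding span. Calculations ran in Python 3.11.15 with scipy 1.17.1, numpy 2.4.6 and statsmodels 0.14.6, and figures used matplotlib 3.10.9.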

Additional observations from a re-analysis of the deposited data

How the results depend on the processing

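No paired analysis was possible because no sample values were analysed. The number of genes away from the intervals, 116, was 67 without chromosome I and 75 without IIc, and those on the forward strand, 68, were then 41 and 44, since fewer genes are counted. Genes with an intron numbered 25 by the deposited exons and 44 by RefSeq's, and away from the intervals 9 and 26; the last alternative was chosen after seeing the data. Grouped genes away, 17, were 6 at a limit of 200 bases, 11 without chromosome I and 8 without IIc. The median distance to the nearest coding gene, 299.5 bases, was 588.5 to the coding span, which leaves out untranslated regions. TATAA within 60 bases was found in 72 genes and the shorter TATA in 136. The share of unique positions, 52.7% at 50 bases, was 40.4% at 36 and 75.2% at 100. The other alternatives stayed within 1.5 times of the count or close to the value reported. The limits lie in the annotation: intron counts follow its source, strand or exon bounds conflict for 3 genes, and genes are not replicates of a condition.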

Other observations

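RefSeq annotates 238 long terminal repeats of retrotransposons. Their median distance from tRNA genes away from the centromeric intervals was 26.6 kb, and 7 of 116 genes (6.03%) had one within 1 kb. For 5113 protein-coding genes the median was 25.1 kb and the share within 1 kb 6.71%. For the tRNA genes in the intervals the median was 86.2 kb, and 0 of 55 had one within 1 kb. An annotated non-coding RNA gene overlapped 2 of the 116 tRNA genes away, SPBTRNAPRO.06 with SPNCRNA.1502 and SPBTRNAGLU.08 with SPNCRNA.1669. The share of other genes with such an overlap was not computed.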
